A study of Mus musculus with 2 samples.

Results

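Mitotic genes were examined in whole-lung RNA of mice as a set of 56 genes for kinases, kinesins, kinetochore proteins, condensin subunits and their partners. They were listed by role, with earlier results of these data known, and matched by gene symbol with no threshold on their values, and all 56 were found among 22072 genes. The knockout (KO) group carried Pdgfb-iCreER together with homozygous floxed Foxf1 alleles (Pdgfb-iCreER / FoxF1 fl/fl), and the control group carried the floxed alleles alone (Foxf1 fl/fl). Both groups were of the background strain C57/BL6. Pdgfb-iCreER is a Cre recombinase switched on by tamoxifen and expressed mainly in endothelial cells, the cells that line blood vessels, and Foxf1 encodes a forkhead transcription factor of lung mesenchyme and endothelium. Each genotype is 1 library made from a pool of mouse lungs, so no difference has a replicate check and no test was possible. The controls had no Cre, so Cre and loss of Foxf1 cannot be told apart. The sources used here do not give the age, sex or number of the mice or the tamoxifen treatment, so a difference in age or sex between the pools cannot be told apart from genotype.

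Levels are FPKM, read counts scaled by transcript length and library depth, summed over the transcript records of a gene. Depth was estimated at about 10.3 M reads on transcripts for the KO pool and 13.1 M for the control pool. A fold is the plain ratio of FPKM values, KO over control, and the range after it is a 95% counting interval computed from approximate read numbers. These intervals cover counting error only and leave out the spread between mice and between library preparations. The targeted gene, listed as Foxf1a, had 15.7 FPKM in the KO pool and 72.1 FPKM in the control pool, a level 4.59-fold lower (3.97 to 5.34) in the KO pool. Markers of the lung were present in both pools, with Sftpc, the surfactant protein C gene of alveolar type 2 cells, at 13800 FPKM in the KO pool and 15900 FPKM in the control pool.

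Cells that enter mitosis build up a shared set of transcripts late in the cycle, in the G2 phase and in mitosis, and most resting cells of an adult lung hold little of them. Cyclin-dependent kinase 1 with its B-type cyclins drives entry, Aurora and Polo-like kinases organise the spindle, kinesins move chromosomes and microtubules, and kinetochores attach chromosomes to the spindle. Condensins fold the chromosomes, and the anaphase-promoting complex (APC/C) tags cyclin B and securin for destruction so that sister chromatids separate. Transcription of many of these genes is held down in resting cells by the DREAM complex and driven in dividing cells by the MuvB complex with B-MYB and FOXM1, largely through a promoter element called the cell cycle genes homology region (CHR) beside CCAAT boxes bound by NF-Y.

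Promoter letters are shown first, because the genes of the set share elements that their selection by name did not use. RefSeq promoter windows of the build GRCm38.p6, each holding 250 bases before and 50 after a gene's start, matched 46 of the 56 genes by symbol. Ccna2, Foxm1, Aurkb, Pbk, Fam64a, Incenp, Kif20a, Tpx2, Spc24 and Smc4 had no entry. The CHR was searched as TTTGAA or TTTAAA and the CCAAT box as CCAAT, each on both strands. The lines below give the 150 bases before the start, 5′ to 3′ on the gene's strand, with matches to the CHR or CCAAT letters in capitals. The first 6 belong to genes of the cyclin, kinase, APC/C and chromosome groups that were far higher in the KO pool, and the last 3 are genes with neither motif. The genes shown were picked by hand. Other genes with neither motif, Kif18a, Nusap1 and Nuf2, are not shown, and were 3.07-fold, 8.67-fold and 13.2-fold higher in the KO pool.
Ccnb1: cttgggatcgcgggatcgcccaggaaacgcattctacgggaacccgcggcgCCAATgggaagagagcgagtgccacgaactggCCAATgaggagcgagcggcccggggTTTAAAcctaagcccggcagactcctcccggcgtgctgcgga
Cdk1: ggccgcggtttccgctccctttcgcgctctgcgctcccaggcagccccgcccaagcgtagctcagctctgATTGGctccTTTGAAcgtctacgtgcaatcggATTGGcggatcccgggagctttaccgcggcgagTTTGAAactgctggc
Plk1: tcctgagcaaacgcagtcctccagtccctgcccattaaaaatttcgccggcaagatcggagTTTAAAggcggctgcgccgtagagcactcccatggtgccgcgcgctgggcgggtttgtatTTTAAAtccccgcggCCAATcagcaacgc
Cdc20: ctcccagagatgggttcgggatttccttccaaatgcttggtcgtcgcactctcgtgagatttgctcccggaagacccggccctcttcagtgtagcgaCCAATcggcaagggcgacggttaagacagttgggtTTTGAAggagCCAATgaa
Ube2c: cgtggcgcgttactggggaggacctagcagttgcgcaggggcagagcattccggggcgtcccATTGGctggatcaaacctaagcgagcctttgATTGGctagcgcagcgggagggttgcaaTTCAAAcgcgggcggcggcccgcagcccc
Top2a: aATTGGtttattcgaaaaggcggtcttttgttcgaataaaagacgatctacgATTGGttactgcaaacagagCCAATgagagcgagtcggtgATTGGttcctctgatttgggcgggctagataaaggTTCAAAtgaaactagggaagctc
Mad2l1: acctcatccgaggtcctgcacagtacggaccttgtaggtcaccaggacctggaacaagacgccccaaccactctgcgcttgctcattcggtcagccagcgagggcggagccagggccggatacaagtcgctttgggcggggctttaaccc
Ncaph: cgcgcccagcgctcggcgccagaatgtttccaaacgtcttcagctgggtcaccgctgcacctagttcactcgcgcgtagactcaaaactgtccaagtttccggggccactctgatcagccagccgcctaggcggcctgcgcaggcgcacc
Pttg1: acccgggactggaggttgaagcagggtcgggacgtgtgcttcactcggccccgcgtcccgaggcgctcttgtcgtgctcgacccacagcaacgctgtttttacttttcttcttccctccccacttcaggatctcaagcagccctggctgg
These stretches lie at chr13:100786487-100786636, minus strand (Ccnb1), chr10:69352913-69353062, minus strand (Cdk1), chr7:122159285-122159434, plus strand (Plk1), chr4:118437344-118437493, minus strand (Cdc20), chr2:164769779-164769928, plus strand (Ube2c), chr11:99024190-99024339, minus strand (Top2a), chr6:66535071-66535220, plus strand (Mad2l1), chr2:127133955-127134104, minus strand (Ncaph) and chr11:43425982-43426131, minus strand (Pttg1).

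A CHR match lay in the 300-base window of 37 of the 46 genes, or 80.4%, against 30.6% of all 27025 genes with a window and 22.3% of the 9074 genes whose FPKM averaged at least 1 over the libraries. CCAAT matched in 35 of the 46, or 76.1%, against 41.1% of all genes with a window. Both elements were present in 32 of the mitotic genes, or 69.6%, against 12.2% of all genes with a window and 9.08% of those averaging at least 1 FPKM. For comparison, the E2F letters TTTGGCGC or TTTCGCGC matched in 4 of the 46, or 8.70%, against 24.4% of 41 DNA replication genes and 0.929% of all genes. A forkhead core, TAAACA, matched in 7 of the 46, or 15.2%, against 15.1% of all genes and 10.6% of genes averaging at least 1 FPKM. In the shorter stretch from 150 bases before the start to the end of the window the forkhead share was 4.35% of the mitotic genes and 9.56% of all genes. The motifs were chosen for what is known of these genes, and the shares describe letters in these windows and were not tested. The 6 genes with neither CHR nor CCAAT were Pttg1, Kif18a, Mad2l1, Ncaph, Nusap1 and Nuf2. Their folds ran from 0.747 for Pttg1 to 13.2 for Nuf2, and the lowest fold of a gene with a CHR match was 4.02, that of Smc2. Among the 46 genes the median log2 ratio was 2.42 with a CHR match and 1.91 without. By plain ratio the median fold was 10 with a CHR match and 5.16 without. The group without a CHR match was small, since 37 of the 46 genes had one. For CCAAT the median folds by plain ratio were closer, 9.34 with a match and 8.67 without. The files list 2 records of Pttg1 with different starts, and the promoter table holds 1 window for it, so its lack of both motifs holds for that window alone. The last 30 bases of a window lay in a transcript of its gene for 40 of the 46 genes. For the others the placing of the window is less certain.

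**Figure D1:**
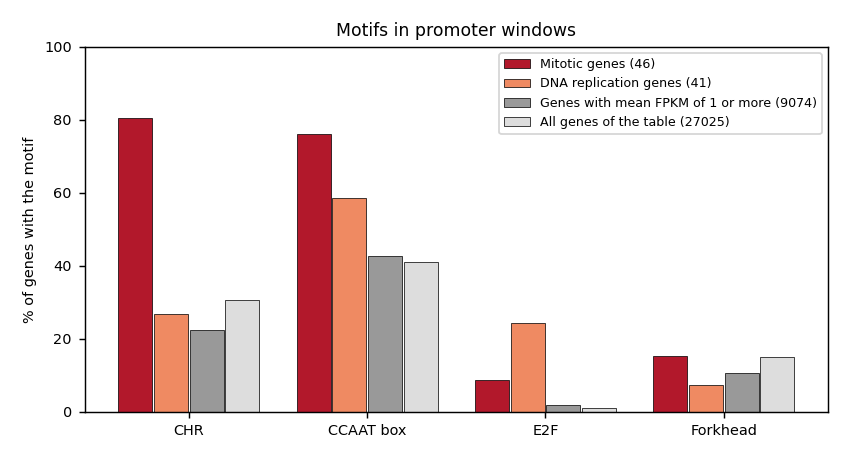
Percentage of genes whose 300-base promoter window holds each motif, for the mitotic genes, DNA replication genes, genes averaging at least 1 FPKM and all genes of the RefSeq promoter table. The CHR bar of the mitotic genes stands at 80.4% and that of the DNA replication genes at 26.8%, whereas the forkhead bar of the mitotic genes stands at 15.2%.

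Of the 56 mitotic genes, 55 were higher in the KO pool and 1, the securin gene Pttg1, was lower, while 56.8% of all genes were above equality. On the log2(FPKM + 1) scale, which adds 1 FPKM to each value and so understates the difference of low genes, 54 genes were at least 2-fold higher and 0 were at least 2-fold lower. The corresponding shares of all 12929 genes averaging at least 1 FPKM over the libraries were 3.75% for 2-fold higher and 1.25% for 2-fold lower. At a fold of 1.5, 55 mitotic genes were higher and 0 lower, against 9.41% higher and 4.63% lower of all genes. By plain ratio 54 mitotic genes were also at least 2-fold higher and 0 at least 2-fold lower, against 5.43% higher and 2.22% lower of all genes. All 56 genes passed this floor of 1 FPKM, and 15 of them were under 1 FPKM in the control pool, so these passed it through their level in the KO pool. The median log2 ratio was 2.39 for the mitotic genes and 0.05 for all genes over the floor. The median fold was 9.33, with 48 genes at least 5-fold higher, a fold that 1.52% of all genes over the floor reached, and 26 at least 10-fold higher, against 0.642% of all genes. In the KO pool the set spanned 2.87 to 45.1 FPKM with a median of 12.9, and in the control pool it spanned 0.222 to 34.6 FPKM with a median of 1.38. By approximate reads the set took 0.282% of the KO library and 0.0410% of the control library. Whole-lung RNA cannot tell more dividing cells apart from more of these transcripts per cell.

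**Figure D2:**
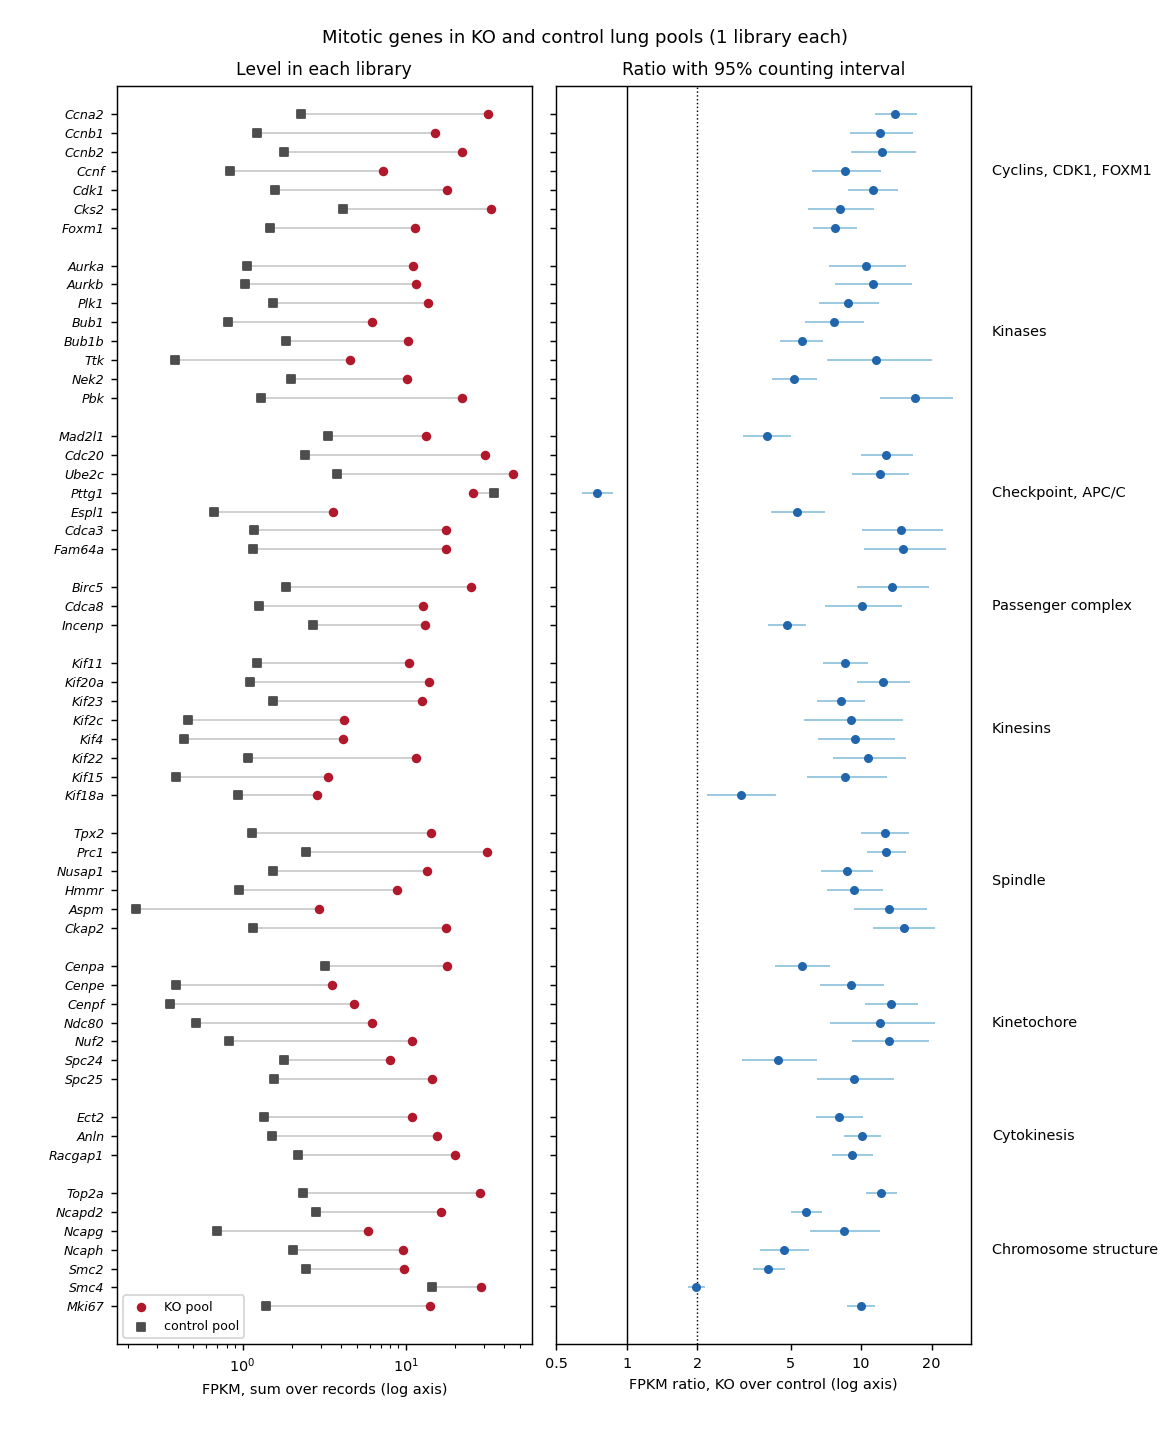
Levels and ratios of the 56 mitotic genes, grouped by role. The left panel gives FPKM on a log axis in the KO pool (circles) and the control pool (squares), and the right panel gives the FPKM ratio of KO over control on a log axis with 95% counting intervals, a line at 1 and a dotted line at 2. Only Pttg1 lies left of 1, at 0.747, and Smc4 lies at 1.98.

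Genes of the CDK1 engine were 7.72-fold to 14.0-fold higher in the KO pool, all 7 of them. Cdk1, the kinase that drives entry into mitosis, had 17.8 FPKM in the KO pool and 1.59 FPKM in the control pool, 11.2-fold higher (8.77 to 14.4). Its B-type cyclin partners differed by a similar factor. Ccnb1 had 15.0 FPKM in the KO pool and 1.23 FPKM in the control pool (12.1-fold, 8.96 to 16.7), and Ccnb2 had 22.0 and 1.79 FPKM in the KO and control pools (12.3-fold, 9.04 to 17.1). Cyclin A2, which acts in S phase and at entry into mitosis, is encoded by Ccna2, the gene with the highest log2 ratio of the set, at 31.9 FPKM in the KO pool and 2.27 FPKM in the control pool, 14.0-fold higher. Cks2, which encodes a small docking subunit of CDK complexes, was among the most abundant genes of the set in both pools, at 33.4 FPKM in the KO pool and 4.10 FPKM in the control pool (8.15-fold). Ccnf, which encodes the ubiquitin ligase subunit cyclin F, was lower in level, at 7.19 FPKM in the KO pool and 0.838 FPKM in the control pool (8.58-fold, 6.19 to 12.2). Foxm1, the forkhead factor that activates this programme, had 11.3 FPKM in the KO pool and 1.47 FPKM in the control pool, 7.72-fold higher (6.26 to 9.59). The counting interval of Ccna2 (11.5 to 17.3) lies above those of Foxm1 and Cks2 (5.96 to 11.4).

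The 8 mitotic kinases besides CDK1 were 5.16-fold to 17.0-fold higher in the KO pool. The Aurora kinase genes were alike: Aurka, whose kinase works at the spindle poles, had 11.1 FPKM in the KO pool and 1.06 FPKM in the control pool (10.5-fold, 7.32 to 15.6), and Aurkb, the kinase of the chromosomal passenger complex, had 11.5 and 1.03 FPKM in the KO and control pools (11.2-fold, 7.77 to 16.5). Plk1, the Polo-like kinase of centrosome maturation and cytokinesis, was 8.79-fold higher (6.61 to 11.9), at 13.6 FPKM in the KO pool and 1.54 FPKM in the control pool. Pbk, a kinase gene expressed in dividing cells, had the largest fold of the set, 17.0 (12.0 to 24.6), with 22.0 FPKM in the KO pool and 1.30 FPKM in the control pool. The kinases of the spindle checkpoint, which delays anaphase until chromosomes are attached, were more spread out. Ttk, the checkpoint's upstream kinase, had 4.52 FPKM in the KO pool and 0.388 FPKM in the control pool (11.6-fold, 7.15 to 20.1). Bub1 had 6.23 FPKM in the KO pool and 0.812 FPKM in the control pool (7.67-fold, 5.78 to 10.3). Bub1b, which encodes BUBR1, was 5.57-fold higher (4.52 to 6.91), at 10.3 FPKM in the KO pool and 1.85 FPKM in the control pool. Nek2, a kinase of centrosome separation, was the lowest of the kinases, at 5.16-fold (4.15 to 6.46), with 10.2 FPKM in the KO pool and 1.98 FPKM in the control pool. The intervals of Bub1b and Nek2 lie wholly below that of Pbk.

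The APC/C group held both the highest levels and the gene that went the other way. Ube2c, the ubiquitin-conjugating enzyme that works with the APC/C, had 45.1 FPKM in the KO pool, the highest level of the set there, and 3.76 FPKM in the control pool (12.0-fold, 9.12 to 16.1). Cdc20, the mitotic activator of the APC/C, had 30.6 FPKM in the KO pool and 2.40 FPKM in the control pool (12.8-fold, 9.98 to 16.6). Cdca3, which encodes a trigger of mitotic entry that the APC/C destroys, had 17.5 FPKM in the KO pool and 1.18 FPKM in the control pool (14.8-fold, 10.1 to 22.5). Fam64a, a gene expressed in dividing cells, had 17.6 and 1.16 FPKM in the KO and control pools (15.1-fold, 10.3 to 23.1). Mad2l1, which encodes the checkpoint protein that holds CDC20 inactive, was 3.95-fold higher (3.12 to 5.04), at 13.2 FPKM in the KO pool and 3.33 FPKM in the control pool. Espl1, which encodes separase, the protease that cuts cohesin at anaphase, had 3.59 FPKM in the KO pool and 0.672 FPKM in the control pool (5.35-fold, 4.12 to 7.02). Pttg1, which encodes securin, the inhibitor of separase, had 25.8 FPKM in the KO pool and 34.6 FPKM in the control pool, 1.34-fold lower in the KO pool (1.15 to 1.56). In the control pool Pttg1 was the most abundant gene of the set, from about 471 reads, and in the KO pool it had about 269 reads. Both of its records were lower in the KO pool, the record of 740 bases at 23.6 FPKM in the KO pool and 31.1 FPKM in the control pool, and the record of 1690 bases at 2.22 and 3.53 FPKM in the KO and control pools. The gene lies on chromosome 11 from 43233750 to 43239750 (mm9), and no other gene of the files overlaps it.

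Subunits of a complex did not all differ by the same factor. In the chromosomal passenger complex, which corrects faulty attachments, Birc5 (survivin) had 24.9 FPKM in the KO pool and 1.84 FPKM in the control pool, 13.5-fold higher (9.60 to 19.6). Cdca8 (borealin) was 10.1-fold higher (6.99 to 14.9), at 12.7 FPKM in the KO pool and 1.26 FPKM in the control pool. Incenp, the scaffold subunit, was 4.81-fold higher (3.99 to 5.84), at 13.0 FPKM in the KO pool and 2.69 FPKM in the control pool, an interval below those of Birc5, Cdca8 and Aurkb. In the KO pool Incenp, Cdca8 and Aurkb stood at similar levels, while in the control pool Incenp was the highest of the 4 genes.

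All 8 mitotic kinesins were higher in the KO pool, 7 of them 8.19-fold to 12.4-fold. Kif20a, a motor of cytokinesis that carries the passenger complex, was the most abundant in the KO pool at 13.8 FPKM, against 1.11 FPKM in the control pool (12.4-fold, 9.57 to 16.2). Kif23, the kinesin of centralspindlin, had 12.5 FPKM in the KO pool and 1.53 FPKM in the control pool (8.19-fold, 6.51 to 10.4). Kif22, a chromosome-arm kinesin, had 11.6 FPKM in the KO pool and 1.08 FPKM in the control pool (10.7-fold, 7.58 to 15.6). Kif11, which pushes the spindle poles apart, was 8.53-fold higher (6.87 to 10.7), at 10.4 FPKM in the KO pool and 1.22 FPKM in the control pool. The other kinesins were less abundant. Kif2c, a microtubule depolymerase gene, had 4.20 FPKM in the KO pool and 0.462 FPKM in the control pool (9.08-fold, 5.73 to 15.1). Kif4, a chromokinesin gene, had 4.13 and 0.438 FPKM in the KO and control pools (9.43-fold, 6.57 to 13.9), and Kif15, which encodes another spindle motor, had 3.35 and 0.391 FPKM in the KO and control pools (8.56-fold, 5.85 to 12.9). Kif18a, which damps chromosome movement at metaphase, was 3.07-fold higher (2.20 to 4.35), at 2.87 FPKM in the KO pool and 0.932 FPKM in the control pool. Its log2 ratio sits just inside the 2-fold line, and was 0.97 or 0.99 under other scalings of the libraries, and Smc4 sits just outside it at 0.94.

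The 6 spindle proteins outside the kinesins were 8.67-fold to 15.2-fold higher in the KO pool. Prc1, which bundles microtubules at the spindle midzone, had 31.2 FPKM in the KO pool and 2.43 FPKM in the control pool (12.8-fold, 10.6 to 15.6). Tpx2, which activates Aurora A, had 14.3 FPKM in the KO pool and 1.14 FPKM in the control pool (12.6-fold, 9.97 to 16.1). Nusap1, a microtubule-bundling protein gene, had 13.4 FPKM in the KO pool and 1.54 FPKM in the control pool (8.67-fold, 6.76 to 11.3). Ckap2, which encodes a spindle-associated protein, had 17.5 FPKM in the KO pool and 1.15 FPKM in the control pool (15.2-fold, 11.3 to 20.7). Hmmr, a gene for a spindle and hyaluronan-binding protein, had 8.83 and 0.945 FPKM in the KO and control pools (9.34-fold, 7.12 to 12.4). Aspm, a spindle-pole gene, was the least abundant of the set in the control pool, with 2.93 FPKM in the KO pool and 0.222 FPKM in the control pool (13.2-fold, 9.37 to 19.2). The record split of several of these genes shifted between libraries, and the values given are gene sums. The 2960-base record of Nusap1 held 85.6% of the gene's FPKM in the KO pool and 19.8% in the control pool, from about 72 reads for the gene in the control pool. With the most abundant record alone the log2 ratio of Nusap1 was 3.25, against 2.50 for the sum. That of the cytokinesis gene Ect2 was 1.19, against 2.33 for the sum.

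Kinetochore genes were 4.42-fold to 13.4-fold higher in the KO pool. In the NDC80 complex, which binds microtubules directly, Ndc80 had 6.16 FPKM in the KO pool and 0.515 FPKM in the control pool (12.0-fold, 7.35 to 20.7), and Nuf2 had 10.9 and 0.828 FPKM in the KO and control pools (13.2-fold, 9.19 to 19.6). Spc25 had 14.5 FPKM in the KO pool and 1.55 FPKM in the control pool (9.33-fold, 6.51 to 13.8). Spc24, the partner of Spc25, was 4.42-fold higher (3.09 to 6.46), at 7.97 FPKM in the KO pool and 1.80 FPKM in the control pool, an interval below those of the other 3 subunits. Cenpa, the histone H3 variant that marks centromeres, was 5.62-fold higher (4.31 to 7.40), at 17.9 FPKM in the KO pool and 3.18 FPKM in the control pool. The large outer proteins were low in level in both pools: Cenpf had 4.82 FPKM in the KO pool and 0.360 FPKM in the control pool (13.4-fold, 10.4 to 17.5), and the kinesin gene Cenpe had 3.52 and 0.389 FPKM in the KO and control pools (9.06-fold, 6.71 to 12.5). Cytokinesis genes lay closer together. Racgap1, the partner of KIF23 in centralspindlin, had 20.1 FPKM in the KO pool and 2.19 FPKM in the control pool (9.19-fold, 7.50 to 11.3). Ect2, which encodes the RhoA exchange factor it recruits, had 10.9 and 1.35 FPKM in the KO and control pools (8.03-fold, 6.41 to 10.2). Anln, which encodes the anillin scaffold of the contractile ring, had 15.4 and 1.52 FPKM in the KO and control pools (10.1-fold, 8.45 to 12.2), and the 3 intervals overlap.

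Among genes of chromosome structure, Top2a and Mki67 had larger folds than the condensin subunits, though the interval of Ncapg overlaps both of theirs. Top2a, the topoisomerase that untangles sister chromatids, had 28.5 FPKM in the KO pool and 2.34 FPKM in the control pool, 12.2-fold higher (10.5 to 14.2). Mki67, which encodes the proliferation marker Ki-67, had 14.0 FPKM in the KO pool and 1.40 FPKM in the control pool, a log2 ratio of 2.65. Among the subunits of condensin I, Ncapg was 8.42-fold higher (6.07 to 12.0), at 5.89 FPKM in the KO pool and 0.700 FPKM in the control pool, Ncapd2 5.82-fold, at 16.4 FPKM in the KO pool and 2.81 FPKM in the control pool, and Ncaph 4.69-fold, at 9.58 and 2.04 FPKM in the KO and control pools. The SMC subunits, which condensin I and II share, had the smallest folds of the complex. Smc2 had 9.80 FPKM in the KO pool and 2.44 FPKM in the control pool (4.02-fold, 3.44 to 4.72). Smc4 had 28.8 FPKM in the KO pool and 14.5 FPKM in the control pool (1.98-fold, 1.82 to 2.15). The absolute difference, KO minus control, was 14.2 FPKM for Smc4 and 13.6 FPKM for Ncapd2. After Pttg1, Smc4 had the highest control level of the set, and these 2 genes alone exceeded 5 FPKM there. The counting interval held the median fold of 9.33 for 30 of the 56 genes, lay above it for 13 and below it for 13.

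Condensin II and cohesin genes were read beside these values. In this and the other lists that follow, counts at 2-fold and the highest and lowest genes are taken on the log2(FPKM + 1) scale unless a plain ratio is named, and the most abundant genes are those with the highest mean FPKM of both pools. A gene over the floor that is under 1 FPKM in 1 pool can only be higher in the other pool. Ncapg2 of condensin II had 6.07 FPKM in the KO pool and 0.935 FPKM in the control pool (6.49-fold, 5.23 to 8.12). Ncapd3 was 1.90-fold higher (1.64 to 2.21) and Ncaph2 1.35-fold higher (1.25 to 1.46), at 30.7 FPKM in the KO pool and 22.7 FPKM in the control pool. Of 12 cohesin and SMC5/6 genes, which also act in interphase, 0 were at least 2-fold higher or lower, and their median log2 ratio was 0.03. Rad21, the cohesin subunit that separase cuts, was the highest of them, at 63.8 FPKM in the KO pool and 43.8 FPKM in the control pool (1.46-fold, 1.38 to 1.54), and Mau2, a cohesin loader gene, was the lowest, 1.51-fold lower in the KO pool (1.38 to 1.66). The cohesin arms Smc1a (25.1 FPKM in the KO pool and 22.1 FPKM in the control pool) and Smc3 (14.9 and 14.3 FPKM in the KO and control pools), relatives of Smc4 and Smc2, were near equality, and Stag2, next after Rad21 by mean FPKM, had 23.7 and 28.8 FPKM in the KO and control pools.

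**Figure D3:**
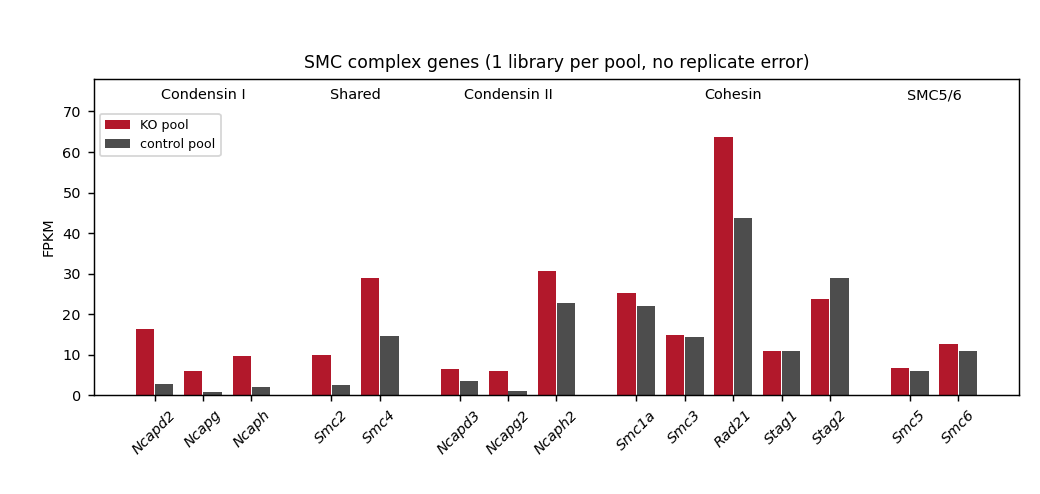
FPKM of condensin, cohesin and SMC5/6 genes in the KO pool (left bar of each pair) and the control pool (right bar), 1 library each. Smc4 stands at 28.8 FPKM in the KO pool and 14.5 FPKM in the control pool, while Ncapg and Ncapg2 are under 1 FPKM in the control pool.

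Most relatives of the mitotic genes with interphase or other roles differed by less than 2-fold between the pools. Of 23 transport and cilia kinesin genes over the floor, 0 were at least 2-fold higher or lower on that scale and 20 lay below equality, with a median log2 ratio of -0.16. Kif26a was the highest, at 7.74 FPKM in the KO pool and 6.16 FPKM in the control pool. Kifc2 was the lowest, at 1.96 FPKM in the KO pool and 4.12 FPKM in the control pool, 2.11-fold lower by plain ratio (1.62 to 2.77). The cargo motor genes Kif1c (41.0 and 41.5 FPKM in the KO and control pools) and Klc1, a kinesin light chain gene (40.7 and 45.6 FPKM in the KO and control pools), were the most abundant. Top2b, the topoisomerase II of non-dividing cells, was 1.03-fold lower in the KO pool (0.964 to 1.09), against the 12.2-fold higher level of Top2a. Plk2 had 21.7 FPKM in the KO pool and 21.2 FPKM in the control pool, and Cdk2, the kinase of S phase, had 13.5 and 9.83 FPKM in the KO and control pools. Of 25 such relatives over the floor, 1 was at least 2-fold higher, the kinase gene Nek6 (2.39-fold, 2.08 to 2.76). The lowest was Ccng2, 1.65-fold lower in the KO pool (1.47 to 1.85), and Cdk4 (60.9 FPKM in the KO pool and 42.1 FPKM in the control pool) and Ccng1 (35.1 and 32.4 FPKM in the KO and control pools) were the most abundant. Among the 14 genes of APC/C subunits and the interphase activator Fzr1, 0 were at least 2-fold higher or lower, with a median log2 ratio of 0.18. Fzr1 was the highest, at 15.8 FPKM in the KO pool and 9.47 FPKM in the control pool (1.67-fold, 1.45 to 1.93), and Anapc16 the lowest, 1.15-fold lower in the KO pool (1.02 to 1.31). Anapc5 (75.0 FPKM in the KO pool and 63.1 FPKM in the control pool) and Anapc13 (34.5 and 38.7 FPKM in the KO and control pools) were the most abundant. Of 7 checkpoint genes with interphase roles, all were above equality and 0 reached 2-fold, with Bub3 leading, 1.55-fold higher (1.43 to 1.70), and the nuclear pore gene Tpr lowest at 1.06-fold (0.988 to 1.14).

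Other genes of cell division were also higher in the KO pool. Of 47 further mitotic genes over the floor, 41 were at least 2-fold higher, 0 at least 2-fold lower, and all were above equality, with a median log2 ratio of 1.68. Many of the 47, among them Cdkn3 and Ska1 (0.297 and 0.132 FPKM in the control pool), were under 1 FPKM there. Such genes passed the floor through their level in the KO pool, so their place above equality was fixed by the floor. Iqgap3, a scaffold gene, had the highest log2 ratio, 2.96, with a fold of 21.1 (15.7 to 29.0). By plain ratio Cdkn3, a CDK phosphatase gene, at 28.6-fold (10.8 to 107), and Ska1, a kinetochore gene, at 21.7-fold (9.60 to 60.6), were higher, from low control levels (both named after their values were known). Wee1, which encodes the kinase that restrains CDK1, was the lowest at 1.12-fold (0.957 to 1.30), a difference within its counting error. Ube2s, the chain-extending enzyme of the APC/C, had 92.5 FPKM in the KO pool and 43.3 FPKM in the control pool, and the phosphatase gene Cdc25b had 25.4 and 11.3 FPKM in the KO and control pools. In the constitutive centromere network and the MIS12 complex, 11 of 18 genes were at least 2-fold higher, and 14 by plain ratio. Several of the 18, Cenpm among them, were also under 1 FPKM in the control pool and passed the floor through the KO pool. Cenpm had the highest log2 ratio, at 7.09 FPKM in the KO pool and 0.335 FPKM in the control pool. Cenpo had the lowest, at 2.16 and 1.69 FPKM in the KO and control pools (1.27-fold), and Cenpb had the lowest fold, 1.19 (1.13 to 1.25). Cenpb (84.0 FPKM in the KO pool and 70.5 FPKM in the control pool) and Mis12 (10.8 and 8.01 FPKM in the KO and control pools) had the highest mean FPKM of both pools.

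DNA replication genes were higher by smaller factors. Of 49 over the floor, 26 were at least 2-fold higher, and 30 by plain ratio, and 0 at least 2-fold lower, with a median log2 ratio of 1.02, against 54 of 56 and a median of 2.39 for the mitotic genes. The ribonucleotide reductase gene Rrm2 led the list, 8.39-fold higher (6.81 to 10.4), and the origin recognition gene Orc5 the lowest, at 7.23 FPKM in the KO pool and 8.39 FPKM in the control pool. Pcna (93.3 FPKM in the KO pool and 45.8 FPKM in the control pool) and Rpa1 (21.7 and 14.8 FPKM in the KO and control pools) had the highest mean FPKM of both pools. Of 13 MuvB, DREAM and B-MYB genes, which control mitotic transcription, 0 were at least 2-fold different on the log2(FPKM + 1) scale, with a median log2 ratio of 0.21, and 3 were at least 2-fold higher by plain ratio. Mybl2, which encodes B-MYB, was 2.61-fold higher (1.80 to 3.81), at 1.93 FPKM in the KO pool and 0.740 FPKM in the control pool. Lin9, a MuvB subunit gene, was 2.06-fold higher (1.56 to 2.74), at 3.61 FPKM in the KO pool and 1.75 FPKM in the control pool. Rbl1, which encodes p107, had the highest log2 ratio of that list, 0.99, and was 2.21-fold higher (1.92 to 2.55). Mybl1, which encodes A-MYB and was under the floor, had 1.44 and 0.415 FPKM in the KO and control pools (3.47-fold, 2.15 to 5.80). Lin9 and Mybl1 were named after their values were known. Tfdp2 was the lowest, 1.46-fold lower in the KO pool (1.34 to 1.59). Rbbp4 (31.5 FPKM in the KO pool and 25.9 FPKM in the control pool) and the repressor gene E2f4 (22.8 and 21.8 FPKM in the KO and control pools) had the highest mean FPKM of both pools.

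**Figure D4:**
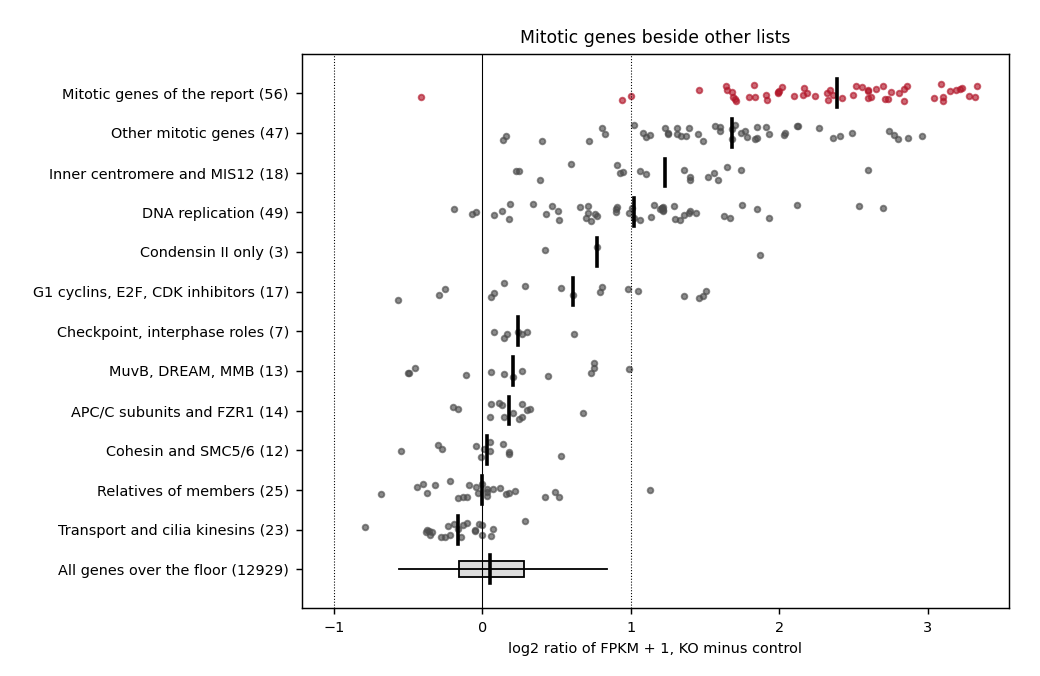
Log2 ratio of FPKM + 1, KO minus control, of each gene in the mitotic set and in 11 other lists, with the number of genes over the floor in parentheses. The row labelled inner centromere and MIS12 holds genes of the constitutive centromere network and the MIS12 complex. Points are genes and thick bars are medians, and the box for all genes gives the quartiles with whiskers at the 5th and 95th percentiles. The median is 2.39 for the mitotic genes, 1.02 for DNA replication genes and -0.16 for transport and cilia kinesins.

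Cell type markers were read beside these values, since dividing cells could belong to any lineage of the lung. The genes named are the highest or lowest by log2 ratio in some of the lists, not in all, and defining genes of blood precursors. Ngp was named besides these. Many markers of cycling blood precursors were low in both pools, and others were not. Of 10 erythroid precursor markers, 8 were under 1 FPKM in both pools, while Alas2, of heme synthesis, had 21.7 FPKM in the KO pool and 25.9 FPKM in the control pool, and Epor had 2.14 and 1.62 FPKM in the KO and control pools. Of 10 neutrophil precursor markers, 6 were under 1 FPKM in both pools, with Mpo and Elane at 0.0608 and 0.254 FPKM in the KO pool and 0.0707 and 0 FPKM in the control pool. Camp (2.60-fold, 1.16 to 6.22) and Ngp (2.10-fold, 1.29 to 3.49), which encode granule proteins, were higher in the KO pool, at 2.62 and 3.10 FPKM there and 1.01 and 1.47 FPKM in the control pool. Chi3l3, also on the alveolar macrophage list, had 313 FPKM in the KO pool and 295 FPKM in the control pool. Of 10 thymocyte markers, 6 were under 1 FPKM in both pools, with Rag1 and Rag2 at 0 FPKM in the KO pool and 0.0305 and 0 FPKM in the control pool. Summed levels of resident markers differed less than those of the mitotic genes, whose sum was 808 FPKM in the KO pool and 131 FPKM in the control pool. The 10 endothelial markers summed to 1650 FPKM in the KO pool and 1480 FPKM in the control pool, and 4 of them lay below equality. Emcn was 5.11-fold higher (4.70 to 5.56), and the tight junction gene Cldn5 was 1.75-fold lower (1.67 to 1.83), at 150 FPKM in the KO pool and 263 FPKM in the control pool. The 10 fibroblast markers summed to 2480 FPKM in the KO pool and 2060 FPKM in the control pool, with 5 at least 2-fold higher and 3 below equality. The fibronectin gene Fn1 was 3.38-fold higher (3.29 to 3.47), and Inmt was 1.90-fold lower (1.85 to 1.95), at 626 FPKM in the KO pool and 1190 FPKM in the control pool. The 10 smooth muscle and pericyte markers summed to 452 FPKM in the KO pool and 237 FPKM in the control pool, with 3 at least 2-fold higher and 1, Kcnj8, below equality (1.58-fold lower, 1.15 to 2.20). Tagln had the highest log2 ratio of that list and was 2.34-fold higher (2.21 to 2.47). The 9 alveolar macrophage markers summed to 512 FPKM in the KO pool and 454 FPKM in the control pool, mostly Chi3l3, with 3 at least 2-fold higher and 3 below equality. Of these, the scavenger receptor gene Marco had 15.4 FPKM in the KO pool and 3.81 FPKM in the control pool, and Ear2 had 24.1 and 42.8 FPKM in the KO and control pools. Club cell and ciliated cell markers summed to 26800 and 427 FPKM in the KO pool and 42400 and 712 FPKM in the control pool, with 2 and 1 markers at least 2-fold lower. Of the remaining lists, 1 monocyte and interstitial macrophage marker was at least 2-fold higher (summed levels 840 FPKM in the KO pool and 576 FPKM in the control pool). On the log2(FPKM + 1) scale no gene over the floor reached 2-fold among markers of B and plasma cells (142 and 123 FPKM in the KO and control pools), T and NK cells (27.7 and 36.1 FPKM), mesothelium (429 and 286 FPKM), alveolar type 2 cells (18300 and 21000 FPKM) and alveolar type 1 cells (3040 and 3870 FPKM). By plain ratio Fcer2a of the B cell list (2.12-fold, 1.49 to 3.04) and Lrrn4 of mesothelium, at 8.69 FPKM in the KO pool and 4.34 FPKM in the control pool, did. The part of any of these cell types in the mitotic values was not tested.

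Sequence shared with other genes could move reads. In a search of 48-base words of each gene's longest GENCODE transcript, 53 of the 56 genes shared at most 10% of their words with transcripts of other genes. Ccnb1 shared 42.7%, Cks2 29.9% and Cdc20 12.3%, so their values are less certain. On the genome 9 of the 56 genes overlap another gene. Ccna2 does so with Exosc9 over 863 bases (12.6 FPKM in the KO pool and 8.67 FPKM in the control pool). Kif20a overlaps Cdc23 (13.8 and 11.8 FPKM in the KO and control pools), and Nusap1 overlaps Oip5 (2.77 and 0.519 FPKM in the KO and control pools). In such overlaps reads cannot be told apart without strand, which the sources used here do not give.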

How the data were processed

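RNA of dissected lungs was pooled by genotype, per the labels and the design text, giving 1 KO and 1 control library. The authors deposited FPKM values per RefSeq transcript record, and per the file headers a coverage signal (read depth along a transcript), in fixed proportion to FPKM in each library. The submitters' processing notes list the build mm9 and DESeq, without roles, and no source used here names an aligner or quantification tool. Each library held 28107 records, joined by transcript, symbol, locus and length. FPKM was summed by symbol. Coverage times length of single-record symbols over 1000 bases, between 35 and 65 bases, had a median of 47.9 bases for KO and 48.1 for control, taken to be 1 read. Intervals are Clopper-Pearson at 95% on the approximate read numbers. They were checked only on counts simulated with counting error alone, the error that they assume. Low genes are limited by depth: 10 reads on 2000 bases give 0.394 FPKM in the KO library and 0.307 in the control library. Counts used a floor of mean FPKM 1, a pseudocount of 1 and a fold of 2. The genes, lists and motifs were chosen with earlier results of these data known. All 56 genes are named. From the other gene lists the highest, lowest and 2 most abundant genes are named, and relatives of the members. The cell type marker lists are named in part only. Rod1 was dropped from the checkpoint list because this symbol denotes another gene. Python 3.11.15, pandas 2.3.3, numpy 2.4.6 and scipy 1.17.1 were used.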

Additional observations from a re-analysis of the deposited data

How the results depend on the processing

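No paired analysis was possible because each genotype has 1 library, and no library could be left out. The count of mitotic genes at least 2-fold higher, 54 as reported, ran from 39 of 41 with a floor of 5 to 55 with a fold of 1.5, was 49 with a pseudocount of 3 and 53 under each of 3 other scalings, and 0 were lower under every setting run. Of all 12929 genes over the floor, 485 were higher as reported, 275 with a pseudocount of 3 and 445 to 477 under the scalings. With a floor of 5, 268 of 9088 genes were higher, and with a fold of 1.5, 1217 of 12929. No gene of the set changed sign in 489 recomputed values, of which 386 stayed within the counting interval. Part of this was fixed in advance. A floor leaves the value of each kept gene as it was, and a pseudocount cannot change a sign. Only the other scalings and the choice of records could have changed a sign. Medians moved mainly with the pseudocount, by construction. With 0.1 they were 3.12 for the set, 3.40 for the CDK1 group, 3.15 for kinases, 3.23 for the passenger complex, 2.96 for kinesins, 3.39 for spindle proteins, 3.14 for kinetochore and for cytokinesis genes, 2.50 for chromosome structure and 2.73 for other mitotic genes. With 3 they were 1.77 for the set, 2.18 for the CDK1 group, 1.63 for kinases, 2.29 for the APC/C group, 1.88 for the passenger complex, 1.36 for kinesins, 1.96 for spindle proteins, 1.38 for kinetochore genes, 2.03 for cytokinesis, 1.32 for chromosome structure and 0.97 for other mitotic genes. With a floor of 5 the medians were 2.60 for kinetochore genes and 0.22 for G1 genes, with no floor 0.15 for imprinted genes, and with the most abundant record alone 3.15 for spindle proteins. Counts over all genes were 267 lower with a pseudocount of 0.1, 275 higher and 104 lower with 3, 268 higher with a floor of 5, 1217 higher and 599 lower at 1.5-fold, and 204 higher and 62 lower at 3-fold. From 150 bases before the start to the window's end, the forkhead share of the set was 4.35%, against 9.56% of all genes.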

Other observations

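Regulators of the G1 phase, upstream of mitosis, were mixed. Of 17 over the floor, 5 were at least 2-fold higher in the KO pool on the log2(FPKM + 1) scale, 7 by plain ratio, and 0 at least 2-fold lower, with a median log2 ratio of 0.61. The atypical E2F gene E2f7, a repressor made late in G1 and S phase, led the list, 6.82-fold higher (4.87 to 9.77), and the CDK inhibitor gene Cdkn1b (p27) was the lowest, at 23.5 FPKM in the KO pool and 35.4 FPKM in the control pool. The D-type cyclin genes Ccnd1 (126 FPKM in the KO pool and 71.2 FPKM in the control pool) and Ccnd3 (121 and 83.6 FPKM in the KO and control pools) were the most abundant.

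Imprinted growth genes, known for high levels in fetal and young tissues, held 2 genes at least 2-fold higher on the log2(FPKM + 1) scale among 14 over the floor, and 3 by plain ratio, with a median log2 ratio of 0.36. The age of the pooled mice is not stated, so age and genotype cannot be told apart for these values. H19 had 16.5 FPKM in the KO pool and 0.295 FPKM in the control pool (55.8-fold, 32.4 to 106), and Mest, named after its values were known, had 26.9 and 3.83 FPKM in the KO and control pools (7.04-fold, 5.93 to 8.39). Igf2, also named so, had 4.87 FPKM in the KO pool and 2.34 FPKM in the control pool. The matrix gene Dcn was the lowest, 1.31-fold lower in the KO pool (1.22 to 1.41). Gnas (459 FPKM in the KO pool and 367 FPKM in the control pool) and Cd81 (259 and 195 FPKM in the KO and control pools) were the most abundant.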
